A study of Phyllostachys violascens with 16 samples.

Results

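In Lei bamboo (Phyllostachys violascens), whose spring shoots are eaten as a vegetable, shoots stored for 2 days at 4 °C were compared with shoots sampled on day 0. The comparison takes the 4 libraries labelled 2d and the 4 labelled 0d, 8 of the 16 libraries of the series, and covers every gene of the deposited table. The shoots stood 30 to 40 cm tall and were kept in polyethylene bags at a humidity of 60 to 70%, with 30 shoots together for each replicate. Each library is a pool of middle segments, about 10 cm long, from 6 shoots. Both groups come from the same kind of shoot, with no difference in genotype in the labels, and the 0d libraries also carry the label of the treatment at 4 °C. No library comes from shoots stored at another temperature, and the labels do not say whether the shoots were kept in the light. Cold, time since cutting and packing therefore all separate 2d from 0d and cannot be told apart. Other libraries of the series were made at 6 and 20 days, and their levels are given below as a description, with no test.

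A young bamboo shoot grows by cell division and elongation in its internodes and draws sugar from the rhizome it stands on. Once cut, it loses that supply but goes on respiring, and the cut surface starts a wound response in which lipoxygenases, jasmonate and ethylene take part. Chilling acts through calcium signals, through the CBF/DREB transcription factors and through abscisic acid, and in many plants it raises dehydrins, raffinose sugars and the unsaturation of membrane lipids.

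A gene was called when its Benjamini-Hochberg adjusted p in edgeR's quasi-likelihood test was below 0.05 and its log2 change was at least 1 in size. Of 24944 genes tested, with a mean of at least 1 FPKM (fragments per kilobase of transcript, scaled to sequencing depth) over all libraries, 7762 were called, or 31.1%. At 2d 3258 genes were higher, 13.1% of those tested, and 4504 were lower, 18.1%. By adjusted p alone, at any size of change, 20005 genes passed. A change of at least 2 on the log2 scale was seen for 919 of the genes called higher and 1759 of those called lower. The 0d and 2d libraries did not overlap in FPKM for 7628 of the called genes. The share without overlap over all genes tested is not given here. Genes that were not called could lack overlap too, such as PH02Gene02658 with a log2 change of -0.0008, so a lack of overlap alone does not mark a change. With every library scaled to its total count, 2311 genes were called higher and 5797 lower, and the median log2 change of all genes moved from -0.004 to -0.255. The share of higher genes among those called thus stood at 42.0% with TMM scaling and at 28.5% with total counts, and directions below were checked under both. FPKM means and sums below are scaled to sequencing depth, while log2 changes carry the TMM factors. A change in FPKM therefore reads lower than the log2 change beside it: PH02Gene02658, with a log2 change near 0, stood at 617 FPKM at 0d and 519 at 2d.

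Total counts ran from 54.3 to 64.9 M at 0d and from 51.7 to 62.4 M at 2d, with M for mega. Between 25704 and 25819 genes reached 1 FPKM in a 0d library and between 23022 and 23072 in a 2d library. Across the 11339 genes with a mean of at least 10 FPKM, libraries of one group correlated at 0.985 to 0.993 and libraries of different groups at 0.743 to 0.753. Markers of the shoot's own tissues were present: cyclins A and B and B-type cyclin-dependent kinases of dividing cells summed to 78.4 to 85.8 FPKM at 0d and 107 to 114 at 2d. Of 13 such genes 4 were called higher and 0 lower. Other genes of dividing cells had lower sums at 2d: histones stood at 962 to 987 and 735 to 794 FPKM, with 7 of 39 higher and 9 lower. Genes for kinesins and mitosis summed to 1109 to 1125 and 812 to 830 FPKM, with 19 of 101 higher and 18 lower. Summed laccases of developing xylem stood at 27.7 to 30.0 and 8.61 to 10.4 FPKM, with 3 of 14 higher and 6 lower. Wax genes of the epidermis summed to 44.1 to 46.3 and 32.3 to 35.4 FPKM, with 1 of 13 higher, or 2 without 0d replicate 2, and 3 lower. Phloem genes summed to 58.9 to 62.5 and 27.4 to 29.4 FPKM, with 3 of 6 lower and none higher. Of 12 pollen and anther genes, which a shoot should lack, 2 were tested, and together they stood at 4.79 to 6.87 and 3.8 to 4.38 FPKM. In bulk tissue, fewer cells of a type and less RNA per cell cannot be told apart, and the part of tissue make-up in the changes below was not tested.

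**Figure D1:**
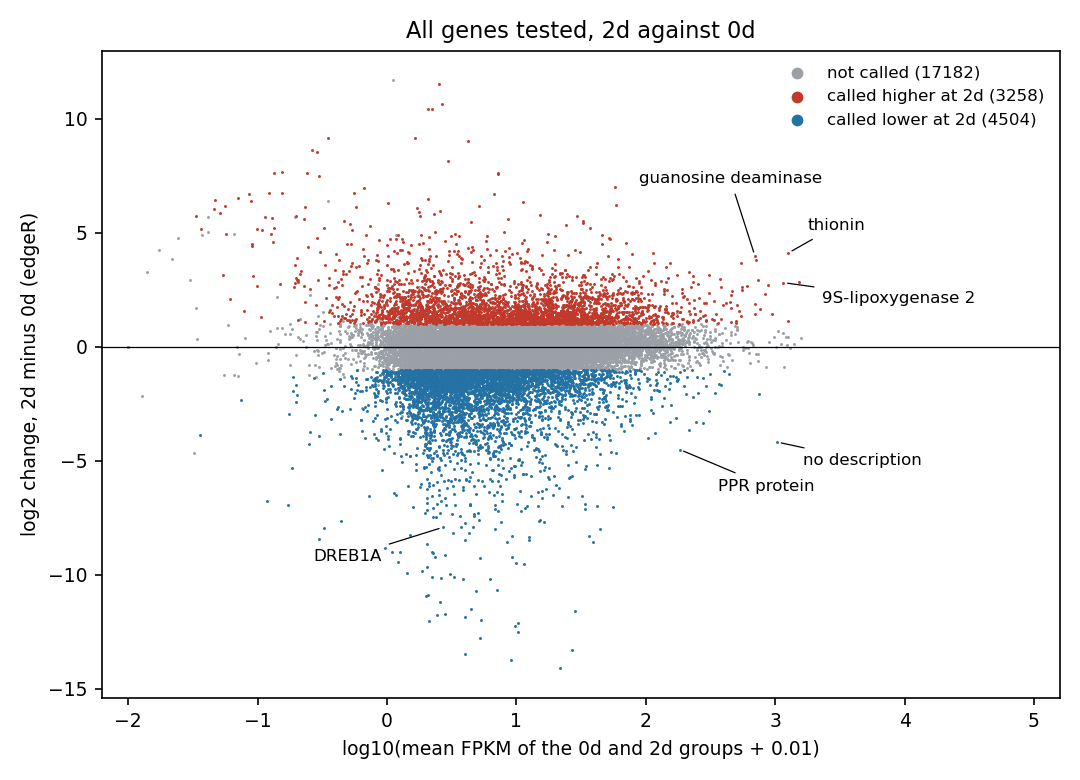
Each point is one of the 24944 genes tested, with its log2 change from 0d to 2d on the vertical axis and its mean level on a log10 axis of FPKM. Red marks the 3258 genes called higher and blue the 4504 called lower. Calls occur at every level, and genes with few or no counts in one group have changes whose size depends on the prior count of the fit.

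The gene lists described here group genes by the protein names in the deposited table. Lists in which most tested members fell included the small heat shock proteins (29 of 29), the photosystem, antenna and Rubisco proteins (43 of 51), the cellulose synthases (10 of 15) and the lipid transfer proteins (14 of 22). Lists with high shares of rises included the glyoxylate cycle and gluconeogenesis (5 of 8) and the fatty acid desaturases (5 of 10). So did a list of proteins that bypass ATP formation, uncoupling proteins among them (5 of 9, or 3 without 0d replicate 1 and under total-count scaling). At the other end, 7 of the 277 tested genes of cytosolic ribosomal proteins were called, and none of the 27 genes of mitochondrial electron transport. These shares lie far below the 31.1% of all genes tested. The electron transport genes had a median log2 change of -0.03. In edgeR 18 of them had an unadjusted p under 0.05 and 18 an adjusted p under 0.05. DESeq2 called 0, and 1 was called lower without 2d replicate 4.

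**Figure D2:**
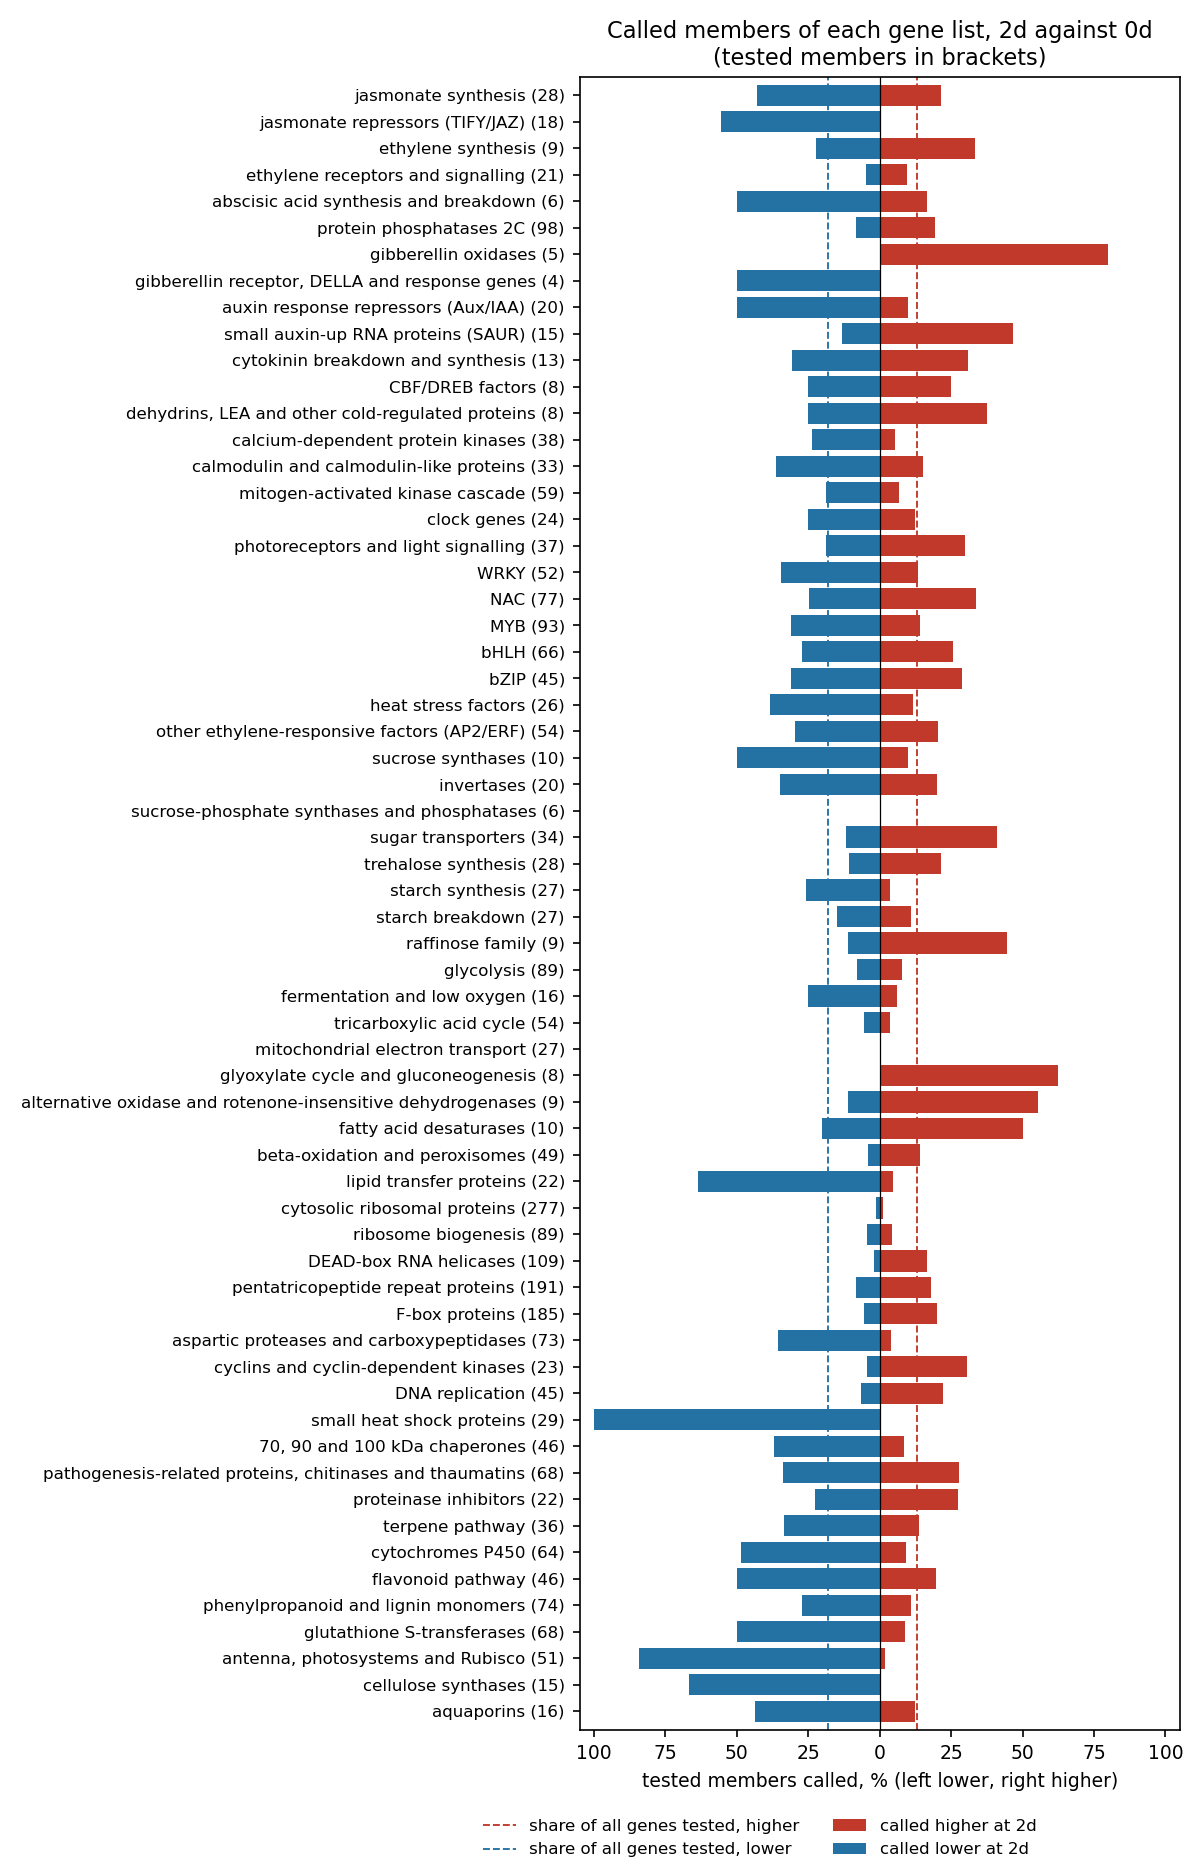
Bars give the percent of tested members of each list that were called lower (blue, to the left) or higher (red, to the right) at 2d, with the number of tested members in brackets. The dashed lines mark the shares over all genes tested, 18.1% lower and 13.1% higher. The bar of small heat shock proteins reaches the left end of the scale, since 29 of 29 fell.

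Among oxylipin genes, 3 abundant 9S-lipoxygenases rose while several enzymes of the jasmonate route fell. Lipoxygenases add oxygen to linoleic and linolenic acid, and allene oxide synthase and cyclase lead on from there to jasmonate. PH02Gene51050, a linoleate 9S-lipoxygenase 2, measured 353, 316, 339 and 337 FPKM in the 0d libraries and 1969, 2033, 1898 and 2027 in the 2d libraries. All 2d libraries stood far above all 0d libraries (log2 change 2.81, SE 0.0559, edgeR adjusted p = 8.59e-15). PH02Gene12522, of the same name, rose from 266 ± 9.19 to 1479.9 ± 39.7 FPKM (log2 change 2.72, SE 0.119, edgeR adjusted p = 7.93e-11). PH02Gene12524, chosen after its values were seen, rose from 202 ± 5.23 to 1276 ± 29.9 FPKM (log2 change 2.91). The deposited table places PH02Gene12522 at bases 17162146 to 17165839 of scaffold 21 and PH02Gene12524 on the same scaffold, at 17312985 to 17317223. How reads shared by such similar copies were counted is not given in the sources used here, so the split between them is uncertain. The 9S enzymes feed a branch of oxylipins separate from the one that ends in jasmonate. The rise did not last: PH02Gene51050 stood at 458 FPKM at 6d and 38.4 at 20d.

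The chloroplast allene oxide cyclase PH02Gene39724, which closes the ring of the jasmonate precursor, went the other way, with 149, 141, 146 and 143 FPKM at 0d and 10.2, 14, 9.83 and 10.7 at 2d (log2 change -3.44, SE 0.0932, edgeR adjusted p = 3.09e-15). The groups did not overlap. A second cyclase, PH02Gene46743, fell from 68.9 ± 2.52 to 21.3 ± 1.72 FPKM (log2 change -1.44). Allene oxide synthase 1 (PH02Gene20989) and the chloroplast lipoxygenase 2.3 (PH02Gene10309), both named after their values were seen, changed by -5.63 and -5.39. Of the 9S-lipoxygenases in the list 5 rose, 2 fell and 2 were not called, and both allene oxide synthase 2 genes were not called. In all, 6 of 28 tested genes of the list rose and 12 fell (median log2 change -0.24, against -0.004 over all genes tested). Their summed level was 1708 ± 37.1 FPKM at 0d and 5540.0 ± 97.4 at 2d, carried by the 9S-lipoxygenases.

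TIFY proteins, which include the JAZ repressors of jasmonate responses and are themselves early jasmonate-induced genes, fell in 10 of 18 cases with none rising (median -1.75). PH02Gene03055, described as TIFY 10c-like, was at 266, 267, 275 and 266 FPKM at 0d and at 83, 82.3, 80.5 and 79.1 at 2d (log2 change -1.47, SE 0.0279, edgeR adjusted p = 3.49e-24). Every 2d library lay below every 0d library. TIFY 11d (PH02Gene09509) fell from 161 ± 7.66 to 17 ± 1.11 FPKM (log2 change -2.99). A TIFY 10A-like gene (PH02Gene40896, named after its values were seen) changed by -5.33. TIFY 10a (PH02Gene04428), the most abundant of those not called, stood at 235 ± 4.08 and 181 ± 4.68 FPKM.

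Ethylene is made from its precursor ACC by ACC oxidases, named in the table as 1-aminocyclopropane-1-carboxylate oxidases. One of them, PH02Gene22088, measured 91.3, 91.6, 93.1 and 87 FPKM at 0d and 306, 319.9, 329.8 and 339 at 2d (log2 change 2.09, SE 0.0638, edgeR adjusted p = 7.29e-14). The groups were clearly apart. PH02Gene22087, of the same name, rose from 33.7 ± 2.23 to 122 ± 1.22 FPKM (log2 change 2.11). The table places PH02Gene22088 at bases 18031097 to 18032579 of scaffold 3 and PH02Gene22087 at 17919538 to 17921059. By 20d both had dropped to 1.63 and 0.672 FPKM. PH02Gene21671, another ACC oxidase, fell from 37.1 ± 2.11 to 2.63 ± 0.436 FPKM (log2 change -3.56), and PH02Gene21368 fell from 3.31 ± 0.283 to 1.01 ± 0.153 FPKM. Of 9 tested genes in the list 3 rose and 2 fell, against 2 and 2 under total-count scaling. Receptors and signalling proteins of ethylene gave 2 rises and 1 fall among 21 genes, 2 and 4 under total-count scaling, and 2 falls without 2d replicate 2.

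Among the most abundant transcripts at 2d were those of a defence peptide and of enzymes of small-molecule metabolism. Thionins are small cysteine-rich peptides toxic to microbes, and the thionin gene PH02Gene28216 measured 155, 166, 163 and 168 FPKM at 0d and 2454, 2387, 2308 and 2314 at 2d (log2 change 4.11, SE 0.0834, edgeR adjusted p = 1.14e-14). It rose in every library and moved from rank 339 to rank 2 by level, and stood at 2855 FPKM at 6d and 4.78 at 20d. A leaf-specific thionin (PH02Gene50531) was at 0, 13, 14.2 and 15.3 FPKM at 0d and 137, 148, 151 and 153 at 2d (log2 change 4.06). It was missing from a single 0d library and higher in every 2d library. The most abundant transcript at 2d was anthranilate O-methyltransferase 2 (PH02Gene34735), an enzyme that in maize makes the volatile methyl anthranilate. Its libraries held 436, 429.9, 432 and 441 FPKM at 0d and 2627, 2649, 2681 and 2614 at 2d (log2 change 2.85, SE 0.0139, edgeR adjusted p = 7.36e-36), with no overlap. S-adenosylmethionine decarboxylase (PH02Gene06665), which commits S-adenosylmethionine to polyamines, rose from 879 ± 7.71 to 1637 ± 23.6 FPKM (log2 change 1.15), a change that falls below the limit, at 0.90, under total-count scaling.

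A Bowman-Birk type wound-induced proteinase inhibitor (PH02Gene04151), of a family that blocks trypsin-like enzymes, was measured at 175, 178, 184 and 186 FPKM at 0d and 944, 951, 894 and 929 at 2d (log2 change 2.61, SE 0.0649, edgeR adjusted p = 3.1e-14). No library of one group reached the other. Like the lipoxygenases it was back near its starting level at 6d, with 202 FPKM at 6d and 22.3 at 20d. The proteinase inhibitors moved both ways: 6 of 22 rose and 5 fell, and 5 and 6 under total-count scaling. A Bowman-Birk trypsin inhibitor (PH02Gene06059) was called lower, from 27.9 ± 13.7 to 3.23 ± 3.94 FPKM, but its ranges overlapped, with 1 low 0d and 1 high 2d library. The groups of a cysteine proteinase inhibitor (PH02Gene14962) were separate, and it fell from 51.4 ± 11.8 to 16.6 ± 4.08 FPKM. Another cysteine proteinase inhibitor (PH02Gene03850) rose from 65.6 ± 2.49 to 114 ± 4.71 FPKM, with its log2 change of 1.05 at 0.80 under total-count scaling. The summed level of the list was 969 ± 16 FPKM at 0d and 1796 ± 47.8 at 2d.

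**Figure D3:**
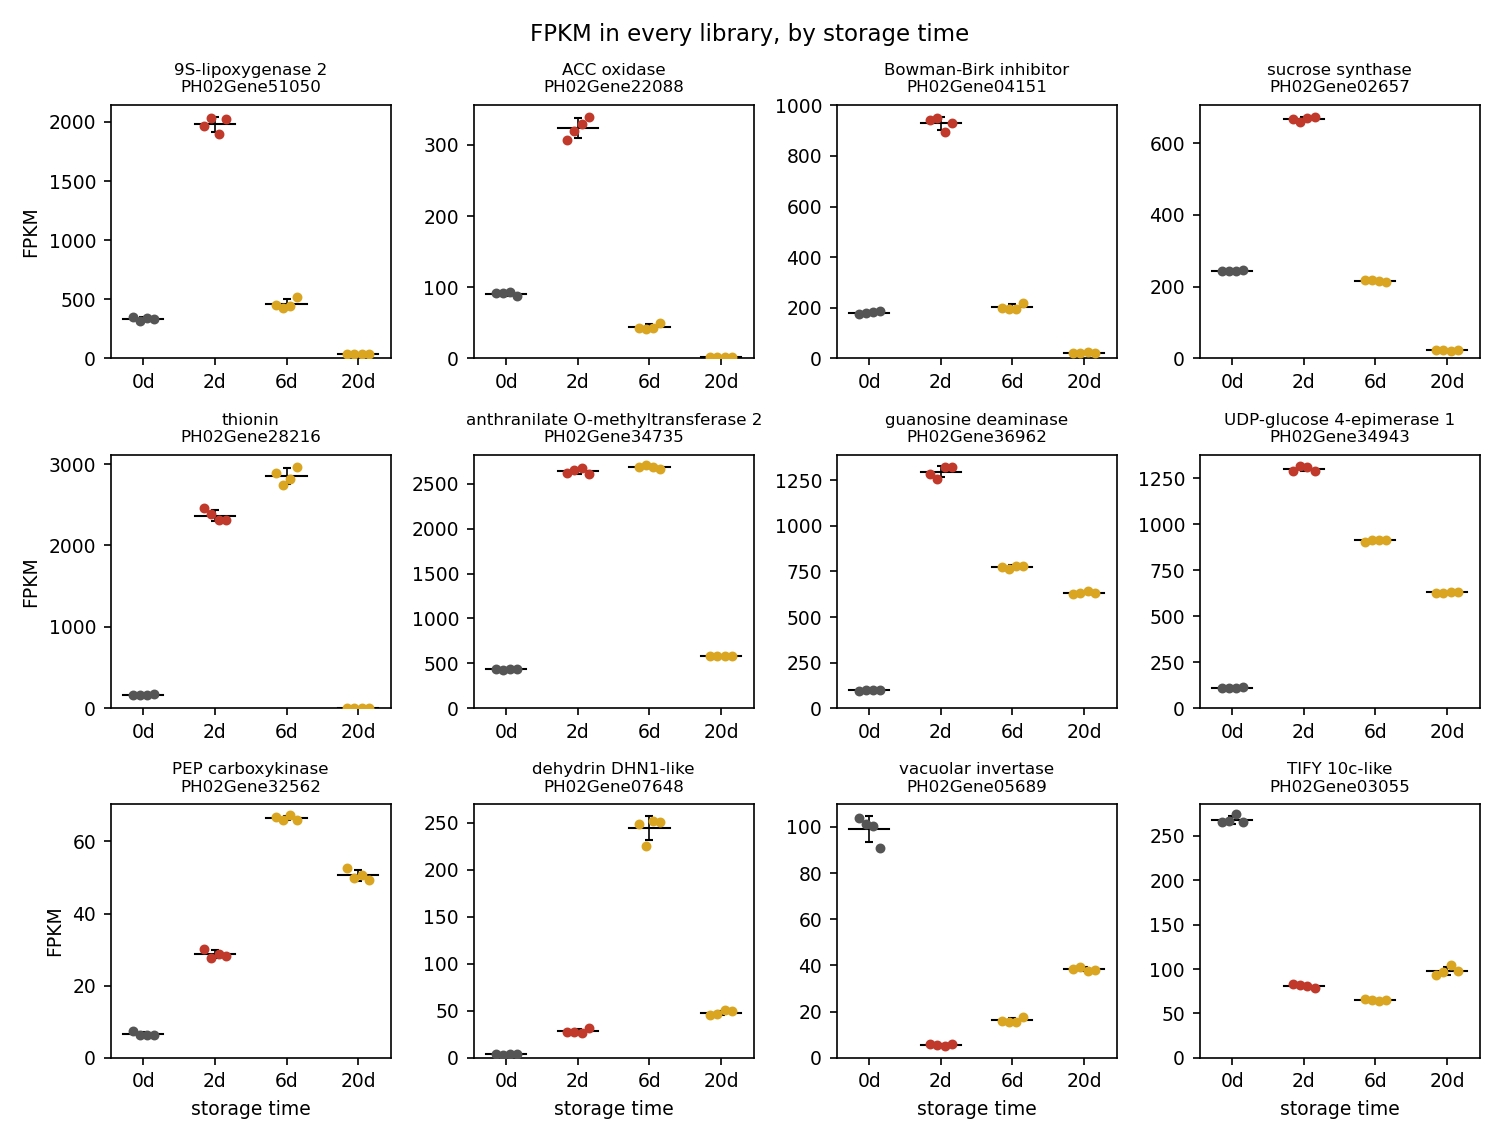
Each panel shows one gene, with a point for the FPKM of every library at 0d (grey), 2d (red), 6d and 20d (yellow), a line at the mean and a bar of 1 SD (n = 4). The top row holds genes high at 2d and back near or below the 0d level at 6d, such as 9S-lipoxygenase 2 with 336, 1982 and 458 FPKM. The middle row holds genes still high at 6d, and the bottom row shows a gluconeogenesis enzyme and a dehydrin that were higher at 6d than at 2d beside 2 genes that fell.

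In sugar metabolism, genes for the same reaction moved in opposite directions. Sucrose is split by sucrose synthases or by invertases, and the most abundant sucrose synthase gene, PH02Gene02657, held 243, 244, 245 and 247 FPKM at 0d and 667, 659.8, 671 and 674 at 2d (log2 change 1.7, SE 0.0209, edgeR adjusted p = 5.54e-28). It was the only gene that rose among 10 tested, while 5 fell (median -1.12), among them PH02Gene46034, from 60.4 ± 1.75 to 6.04 ± 0.621 FPKM, and sucrose synthase 7 (PH02Gene19719), from 15.8 ± 0.783 to 4.02 ± 0.476 FPKM. In the later groups PH02Gene02657 had 217 FPKM at 6d and 23.2 at 20d. A vacuolar invertase (PH02Gene05689) measured 104, 101, 100.5 and 90.9 FPKM at 0d and 5.86, 5.58, 5.32 and 5.84 at 2d (log2 change -3.88, SE 0.0509, edgeR adjusted p = 6.62e-27). The groups stood apart. PH02Gene05690, of the same name and also on scaffold 20, fell from 85.8 ± 3.39 to 2.78 ± 0.386 FPKM. Some other invertases went up, such as cytosolic invertase 1 (PH02Gene31027) from 26.1 ± 0.756 to 71.4 ± 1.64 FPKM and the alkaline/neutral invertase F (PH02Gene10514) from 5.63 ± 0.566 to 13.1 ± 0.659 FPKM. The whole list counted 4 rises and 7 falls among 20 genes. Of 6 genes that make sucrose, the sucrose-phosphate synthases and phosphatases, none was called by edgeR, with log2 changes from -0.04 to 0.87. By p alone 5 of them passed unadjusted and 5 adjusted, and DESeq2 called 0.

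Sugar transporters rose in 14 of 34 cases and fell in 4 (median 0.36). A pair of SWEET genes, whose products let sugars cross membranes down their gradient, led the rises: SWEET2a (PH02Gene23178) rose from 13.7 ± 1.08 to 92.4 ± 2.88 FPKM and SWEET1b (PH02Gene29130) from 1.73 ± 0.289 to 63.6 ± 2.33 FPKM. SWEET4 (PH02Gene23481) fell from 33.8 ± 0.458 to 6.51 ± 0.243 FPKM and the sucrose transport protein SUT2 (PH02Gene43292) from 31.2 ± 0.776 to 12.6 ± 0.371 FPKM. Without an FPKM filter SUT2 was not called, with a log2 change of -0.99. Raffinose synthesis was led by galactinol-sucrose galactosyltransferases, which join galactose to sucrose. Number 6 of these (PH02Gene11640) measured 9.99, 9.59, 8.75 and 9.18 FPKM at 0d and 113, 112, 110.0 and 115 at 2d (log2 change 3.83, SE 0.0337, edgeR adjusted p = 1.16e-30). The groups did not overlap. PH02Gene12725, of the same name, rose from 3.67 ± 0.251 to 33.8 ± 0.9 FPKM. Galactinol synthase 2 (PH02Gene28670), which makes the galactose donor, was 6.28 ± 0.562 and 2.6 ± 0.266 FPKM (log2 change -1.02). It was called lower, but not without 0d replicate 4 (-0.96) or 2d replicate 2 (-0.98). In total 4 of 9 genes rose and 1 fell, and their summed level was 28.6 ± 1.0 FPKM at 0d and 160.1 ± 2.9 at 2d. UDP-glucose 4-epimerase 1 (PH02Gene34943), which makes UDP-galactose, rose from 109.8 ± 2.75 to 1302 ± 14.6 FPKM (log2 change 3.82). Genes of trehalose synthesis rose in 6 of 28 cases and fell in 3.

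Most genes for enzymes that lead from organic acids back to sugar rose. All 8 tested genes of the glyoxylate cycle and gluconeogenesis are given here, and 5 of them were called, each upward (median 1.79). Phosphoenolpyruvate carboxykinase, which turns oxaloacetate into phosphoenolpyruvate, is described for PH02Gene32562 and PH02Gene35891. PH02Gene32562 measured 7.34, 6.36, 6.29 and 6.47 FPKM at 0d and 30.3, 27.8, 28.7 and 28.3 at 2d (log2 change 2.37, SE 0.042, edgeR adjusted p = 8.85e-25), with all 2d libraries above those of 0d. PH02Gene35891 rose from 1.03 ± 0.256 to 8.28 ± 0.54 FPKM. Pyruvate, phosphate dikinase 1 (PH02Gene16722), which forms phosphoenolpyruvate from pyruvate, rose from 12.7 ± 0.525 to 83.8 ± 1.92 FPKM (log2 change 2.97, SE 0.0295, edgeR adjusted p = 1.07e-29). Isocitrate lyase (PH02Gene43926), the defining enzyme of the glyoxylate cycle, was almost absent at 0d, at 0.0208 ± 0.0224 FPKM, and rose to 0.891 ± 0.183. With means below 1 FPKM in both groups, it was tested only because of its level in the later groups. A glyoxysomal citrate synthase (PH02Gene31942) rose from 131 ± 1.79 to 254 ± 8.75 FPKM (log2 change 1.2, and 0.95 under total-count scaling). The other 3 genes were not called: a second glyoxysomal citrate synthase (PH02Gene20676, 42.5 ± 1.59 and 27.1 ± 1.25 FPKM), pyruvate, phosphate dikinase 2 (PH02Gene23231, log2 change 0.12) and a glyoxysomal-like malate dehydrogenase (PH02Gene13436, 0.52). The list summed to 208 ± 3.4 FPKM on day 0 and 419 ± 8.53 on day 2, and to 607 ± 4.85 and 637 ± 10.3 in the later groups. Outside the list, the cytosolic fructose-1,6-bisphosphatase (PH02Gene24076), an irreversible step of gluconeogenesis and sucrose synthesis, was among the 10 largest rises, from 13.9 ± 0.966 to 134 ± 1.76 FPKM (log2 change 3.51).

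Against 31.1% of all genes tested, smaller shares of glycolysis and of the tricarboxylic acid cycle were called. Glycolysis counted 7 rises and 7 falls among 89 genes, the tricarboxylic acid cycle 2 and 3 among 54. Fermentation, with 1 and 4 among 16, was close to the share of all genes. Total-count scaling gave 5 and 11, 2 and 4, and 0 and 4 in the same order. Without 0d replicate 1 the fermentation list counted 0 rises and 2 falls, and it had no rise without 0d replicate 4, 2d replicate 2 or 2d replicate 4 either. By contrast, proteins that let electrons or protons bypass ATP formation were called higher in 5 of 9 cases and lower in 1. Mitochondrial uncoupling protein 1 (PH02Gene23797) held 30.6, 31.8, 30.0 and 34 FPKM at 0d and 143, 145, 137 and 138 at 2d (log2 change 2.4, SE 0.0386, edgeR adjusted p = 1.18e-25), without overlap. Uncoupling protein 5 (PH02Gene13841) rose from 28.8 ± 2.72 to 86.6 ± 6.42 FPKM. An external alternative NAD(P)H-ubiquinone oxidoreductase (PH02Gene26876) fell from 76 ± 1.31 to 9.54 ± 0.71 FPKM (log2 change -2.74). Without 0d replicate 1, and under total-count scaling, the rises of this list numbered 3.

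**Figure D4:**
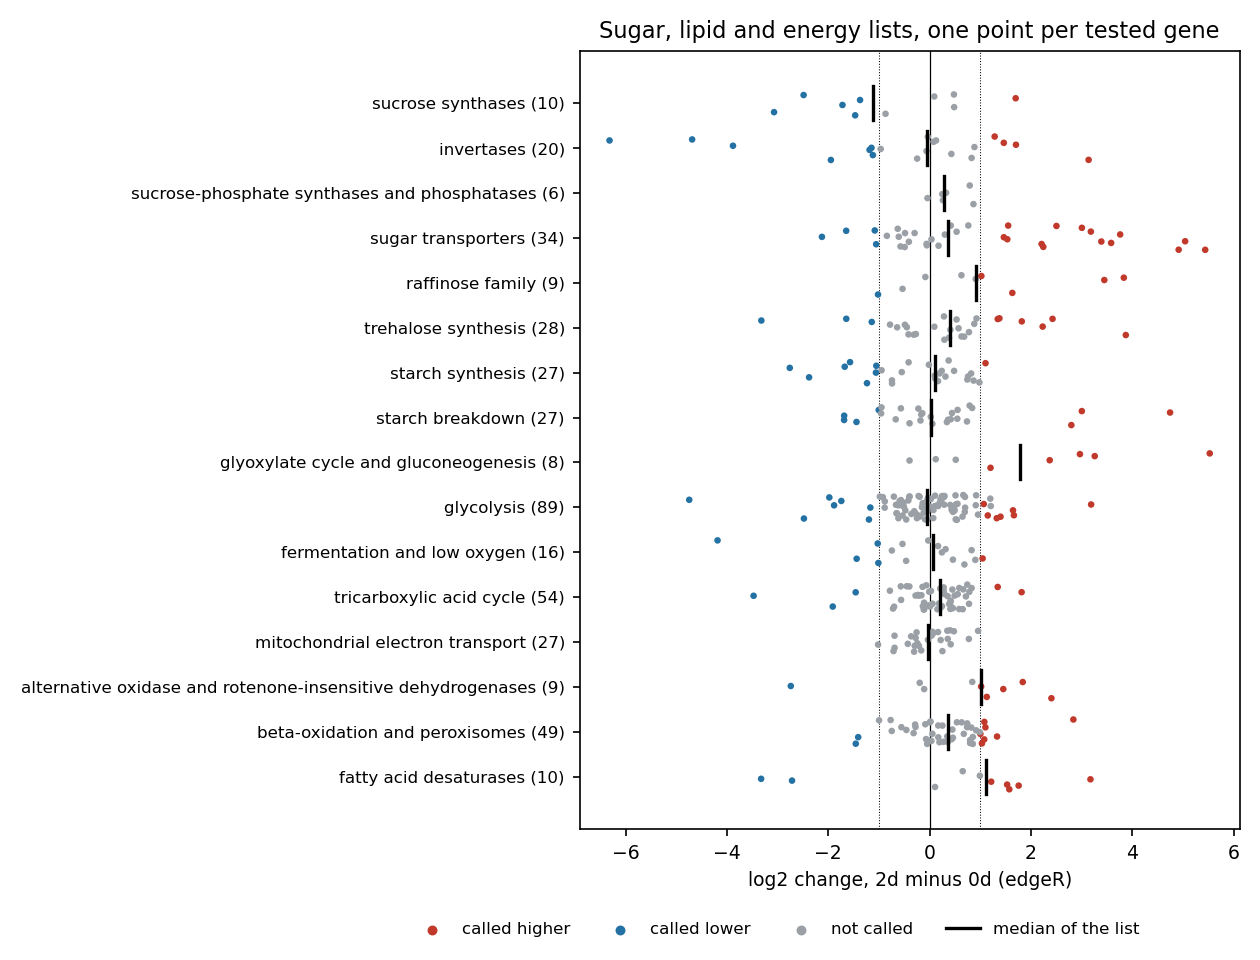
Points are the log2 changes from 0d to 2d of every tested gene in the lists of sugar, lipid and energy metabolism, coloured by call, and black bars are list medians. Dotted lines mark a log2 change of 1 in either direction. Glycolysis, the tricarboxylic acid cycle and electron transport cluster near 0, while the median of the glyoxylate cycle and gluconeogenesis lies at 1.79.

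Desaturases put double bonds into fatty acids, and 5 of 10 tested genes rose and 2 fell (median 1.10). The largest change was a fall: the endoplasmic reticulum omega-3 desaturase PH02Gene00068, which forms linolenic acid, went from 57.5, 60.8, 59.3 and 63.8 FPKM at 0d to 4.95, 4.64, 5.26 and 5.32 at 2d (log2 change -3.33, SE 0.0482, edgeR adjusted p = 1.48e-26). The groups were far apart. A Delta(8)-fatty-acid desaturase 2 (PH02Gene30788), which acts on sphingolipid bases, rose from 38.7 ± 1.29 to 93.9 ± 2.43 FPKM, and a second gene of that name (PH02Gene31223) fell from 4.16 ± 0.477 to 0.525 ± 0.214 FPKM. Fatty acid desaturase DES2 (PH02Gene22841) rose from 7.82 ± 0.338 to 22.2 ± 0.785 FPKM. In beta-oxidation the peroxisomal acyl-coenzyme A oxidase 2 (PH02Gene27283), the first step of the cycle, rose from 40.7 ± 0.406 to 244 ± 1.19 FPKM (log2 change 2.84, SE 0.0197, edgeR adjusted p = 8.73e-33). The list as a whole had 7 rises and 2 falls among 49 genes, but 2 and 3 under total-count scaling, in both cases a smaller share than the 31.1% called among all genes. Lipid transfer proteins, small secreted proteins that carry lipids toward the cell surface, fell in 14 of 22 cases with 1 rise (median -1.77). A pEARLI1-like member (PH02Gene50248) measured 104, 99.1, 107 and 94.5 FPKM at 0d and 5.3, 5.85, 4.42 and 4.47 at 2d (log2 change -4.08, SE 0.271, edgeR adjusted p = 1.27e-09). Another (PH02Gene24250) fell from 32.9 ± 1.24 to 0.102 ± 0.204 FPKM. The 1 rise was non-specific lipid-transfer protein 1 (PH02Gene03417), from 0.561 ± 0.145 to 1.06 ± 0.323 FPKM, and it was not called without 2d replicate 3 (log2 change 0.99) or under total-count scaling (0.92).

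Cold-signalling factors moved in both directions. The CBF/DREB factors, which switch on cold and drought genes, counted 2 rises and 2 falls among 8 tested genes, 2 and 3 under total-count scaling. DREB1A (PH02Gene01977) measured 4.93, 5.86, 6.26 and 4.5 FPKM at 0d and 0, 0, 0 and 0.0551 at 2d (log2 change -7.92, SE 0.455, edgeR adjusted p = 3.48e-14), so that it was nearly gone. Element-binding protein 1C (PH02Gene23182) fell from 1.43 ± 0.311 to 0.114 ± 0.0886 FPKM. A 2C-like gene (PH02Gene41094), the most abundant of the list at 2d, rose from 44.1 ± 0.705 to 123 ± 2.21 FPKM (log2 change 1.73). DREB1.2 (PH02Gene16156) rose from 0.343 ± 0.237 to 3.14 ± 0.38 FPKM. The other 4 were not called: DREB2A (PH02Gene22238, log2 change -0.85, and called lower, at -1.10, under total-count scaling), DREB2 (PH02Gene15563, -0.11), a 2B-like gene (PH02Gene42289, 0.51) and DREB1 (PH02Gene39376, 0.63).

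Dehydrins and late embryogenesis abundant proteins protect proteins and membranes from water loss, and 3 of 8 tested genes rose and 2 fell (median -0.32), against 2 and 3 under total-count scaling. The DHN1-like dehydrin PH02Gene07648 was measured at 3.57, 2.98, 3.77 and 4.29 FPKM at 0d and 27.2, 27.9, 26.6 and 31.7 at 2d (log2 change 3.2, SE 0.0834, edgeR adjusted p = 3.46e-16), with no overlap, and its later means were 244 (6d) and 47.9 (20d). A DHN3 dehydrin (PH02Gene07646) had no counts at 0d and reached 0.459 ± 0.315 FPKM, at least 9.4-fold more at 2d against a floor of 12 counts over the group. A late embryogenesis abundant gene (PH02Gene10877) reached 0.517 ± 0.276 FPKM and was called with a log2 change of 1.06, but not without 0d replicate 3 (0.94), 2d replicate 2 (0.96) or 2d replicate 3 (0.84). With counts divided by 4 its edgeR adjusted p was 0.117. Fitting only the 0d and 2d libraries gave an edgeR adjusted p of 0.0943, again no call. PH02Gene07646 and PH02Gene10877 had means below 1 FPKM at 0d and at 2d, and were tested only because of their levels in the later groups. Dehydrin COR410 (PH02Gene01531) fell from 50.5 ± 1.65 to 18.4 ± 1.94 FPKM and Lea5-D (PH02Gene23248) from 6.41 ± 0.307 to 0.85 ± 0.287 FPKM. The most abundant member, another DHN3 (PH02Gene11487), stood at 169 ± 11.4 and 137 ± 2.34 FPKM (log2 change -0.06, not called). Lea14-A (PH02Gene27068) and the cold-regulated 413 protein PH02Gene04238 were not called either, with -0.58 and -0.96. The latter was called lower under total-count scaling (-1.21) and, by a small margin, without 2d replicate 2.

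Lists of calcium and kinase signalling were mixed. Calcium-dependent protein kinases counted 2 rises and 9 falls among 38, calmodulin and its relatives 5 and 12 among 33, and the mitogen-activated kinase cascade 4 and 11 among 59, with medians of -0.47, -0.26 and -0.22. Over all genes tested 13.1% were higher and 18.1% lower, and the share of lower genes in the kinase cascade is close to the latter. Calcium pumps and channels counted 9 rises and 8 falls among 47 (median -0.28), and 6 and 12 under total-count scaling. Their share of falls was also close to 18.1%, and their share of rises somewhat above 13.1%. Calcineurin B-like proteins and their kinases counted 7 and 10 among 40, both somewhat above the shares of all genes tested.

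Hormone genes other than those above moved in both directions. NCED3 (PH02Gene40492), an enzyme that controls abscisic acid synthesis, was at 12, 11.8, 13.4 and 12.4 FPKM at 0d and 0.216, 0.194, 0.262 and 0.0441 at 2d (log2 change -5.78, SE 0.279, edgeR adjusted p = 1.44e-13). No 2d library came near the 0d range. Hydroxylases that inactivate abscisic acid fell as well, PH02Gene23492 from 16.9 ± 0.833 to 0.742 ± 0.143 FPKM and PH02Gene03757 from 9.21 ± 0.18 to 2.92 ± 0.368 FPKM, while another, PH02Gene27952, was not called (log2 change -0.87, and called at -1.12 under total-count scaling). A putative 9-cis-epoxycarotenoid dioxygenase (PH02Gene49504) was not called, at 29.7 ± 1.17 and 26.3 ± 1.59 FPKM, and zeaxanthin epoxidase (PH02Gene42507), earlier in the pathway, rose from 6.76 ± 0.387 to 18 ± 0.448 FPKM. These are the 6 tested genes of the list. Protein phosphatases 2C, a family that includes repressors of abscisic acid signalling, had 19 rises and 8 falls among 98, but 14 and 16 under total-count scaling. Number 39 (PH02Gene06142) measured 122, 124, 125 and 122 FPKM at 0d and 354, 139.9, 369.6 and 358 at 2d (log2 change 1.56, SE 0.225, edgeR adjusted p = 2.66e-05). Replicate 2 stood far below the other 2d libraries, and all 2d libraries above those of 0d. Number 71 (PH02Gene45844) rose from 7.87 ± 1.0 to 73.9 ± 3.0 FPKM. Numbers 49 (PH02Gene39635) and 34 (PH02Gene18887) fell from 11.4 ± 0.86 to 1.68 ± 0.468 FPKM and from 26 ± 0.995 to 9.35 ± 0.604 FPKM.

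Gibberellin 2-beta-dioxygenases inactivate the growth hormone gibberellin. Of the 5 tested genes of gibberellin oxidases 4 rose and 0 fell (median 1.84), 3 of the risers from below 1 FPKM. The putative gibberellin oxidase PH02Gene36717 rose from 14.9 ± 2.36 to 33.4 ± 0.794 FPKM, the 2-beta-dioxygenase 3-like gene PH02Gene25393 from 0.734 ± 0.243 to 3.44 ± 0.392 FPKM and a 6-like gene, PH02Gene29264, from 0.137 ± 0.095 to 0.409 ± 0.0798 FPKM. A second 6-like gene (PH02Gene51305) had no counts at 0d and 0.446 ± 0.516 FPKM at 2d, at least 3.3-fold more. Both 6-like genes had means below 1 FPKM at 0d and at 2d, and were tested only because of their levels in the later groups. The 2-beta-dioxygenase PH02Gene00807 was not called (10.3 ± 0.104 and 7.05 ± 0.852 FPKM). Of 4 genes of the gibberellin receptor, DELLA and response proteins 2 fell and none rose.

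Of 20 Aux/IAA genes, repressors of auxin responses that auxin itself induces, 10 fell and 2 rose (median -0.95). IAA17 (PH02Gene26638) measured 113, 107, 109 and 107 FPKM at 0d and 33.5, 30.1, 30.3 and 28.1 at 2d (log2 change -1.59, SE 0.0624, edgeR adjusted p = 1.52e-15), and the groups did not overlap. IAA3 (PH02Gene47180) fell from 94.8 ± 1.78 to 36.6 ± 1.69 FPKM. IAA6 (PH02Gene41082) and IAA18-like (PH02Gene24834) rose from 71.4 ± 2.32 to 182 ± 5.28 FPKM and from 45.3 ± 0.323 to 121 ± 0.679 FPKM. Small auxin-up RNAs, many of which promote cell expansion, rose in 7 of 15 cases and fell in 2 (median 0.93). Both leading genes are SAUR36-like, PH02Gene45916 (from 0.999 ± 0.226 to 22.1 ± 2.21 FPKM) and PH02Gene43999 (from 1.15 ± 0.245 to 10.9 ± 1.03 FPKM). Of the 2 that fell, PH02Gene32407 went from 3.02 ± 0.692 to 0.393 ± 0.285 FPKM. The other, SAUR71 (PH02Gene17437, log2 change -1.11), was not called without 0d replicate 3 (-0.84), 2d replicate 1 (-0.98) or 2d replicate 2 (-0.99).

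Families of transcription factors split internally, and several of the largest falls came from genes that were abundant at 0d and close to silent at 2d. WRKY factors, which regulate defence and senescence, rose in 7 of 52 cases and fell in 18. WRKY18 (PH02Gene13855) was at 85.5, 88.6, 83.1 and 78.4 FPKM at 0d and 0.556, 0.366, 0.576 and 0.702 at 2d (log2 change -6.98, SE 0.168, edgeR adjusted p = 4.53e-15). All 2d libraries were near 0. WRKY60 (PH02Gene30731) fell from 115 ± 6.51 to 16.2 ± 0.625 FPKM, while WRKY51 (PH02Gene40513) rose from 9.42 ± 0.291 to 72.9 ± 0.631 FPKM and a putative WRKY DNA-binding protein (PH02Gene37557) from 102 ± 1.35 to 250.0 ± 3.94 FPKM. MYB factors gave 13 rises and 29 falls among 93. An R2R3 Myb-like gene (PH02Gene04333) fell from 66.8 ± 2.57 to 0.391 ± 0.211 FPKM, and MYB61 (PH02Gene04302), a regulator of secondary walls in Arabidopsis and rice, from 30.5 ± 0.959 to 2.91 ± 0.697 FPKM. PvMYB4d (PH02Gene33593) and MYB3R-2 (PH02Gene29928), the latter of a family of cell cycle regulators, rose from 1.6 ± 0.214 to 33.2 ± 1.71 FPKM and from 10.2 ± 0.295 to 38.9 ± 0.919 FPKM. MYB1R1-like (PH02Gene26882) was not called, at 30.4 ± 1.25 and 36.9 ± 1.83 FPKM.

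NAC factors, which include regulators of senescence and stress, had 26 rises and 19 falls among 77 genes, and 23 and 21 under total-count scaling. The NAC domain-containing protein 100 gene (PH02Gene44182) held 58.2, 58, 56.8 and 54.4 FPKM at 0d and 417, 410.2, 400.5 and 399 at 2d (log2 change 3.09, SE 0.029, edgeR adjusted p = 4.06e-30), with wide separation. NAC 29-like (PH02Gene22100) rose from 198 ± 4.2 to 632 ± 9.15 FPKM. The stress responsive NAC genes PH02Gene04473 and PH02Gene03725 fell from 396 ± 11.5 to 71.7 ± 2.7 FPKM and from 198 ± 6.83 to 44.5 ± 1.15 FPKM. Summed over the family the level was 2791 ± 49.3 FPKM at 0d and 4202 ± 51.9 at 2d. Basic helix-loop-helix factors counted 17 rises and 18 falls among 66, and 14 and 21 under total-count scaling, where the median turned from 0.13 to -0.12. The rises included bHLH107 (PH02Gene15574) from 116 ± 1.41 to 496 ± 6.64 FPKM and bHLH153 (PH02Gene03201) from 34.3 ± 1.76 to 123 ± 4.31 FPKM. PH02Gene12145, bHLH35-like, fell from 56.4 ± 3.77 to 0.0135 ± 0.0269 FPKM, and PH02Gene51458 of the same name had no counts at 2d after 43.7 ± 3.01 FPKM at 0d, at least 664.2-fold lower.

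Among bZIP factors 13 of 45 rose and 14 fell. One described only as bZIP transcription factor (PH02Gene25223) measured 29.2, 27.5, 26.1 and 23.6 FPKM at 0d and 263, 269, 302 and 295 at 2d (log2 change 3.66, SE 0.0662, edgeR adjusted p = 1.49e-22). It was among the 10 largest rises of all genes with at least 5 FPKM in both groups. TGA2.2 (PH02Gene25703), of the group that binds promoters of salicylate-responsive genes, rose from 32.4 ± 1.48 to 88.7 ± 1.44 FPKM. Number 44 (PH02Gene06509) and number 23 (PH02Gene02526), the latter a regulator of abscisic acid responses in rice, fell from 22.1 ± 1.04 to 2.69 ± 0.825 FPKM and from 35.7 ± 1.53 to 9.8 ± 0.929 FPKM. Other ethylene-responsive factors counted 11 rises and 16 falls among 54. AIL5 (PH02Gene22504), of an AP2 group active in growing tissue, rose from 1.83 ± 0.166 to 115 ± 1.65 FPKM (log2 change 6.22, SE 0.0494, edgeR adjusted p = 1.46e-31) and ERF118 (PH02Gene04153) from 31 ± 0.927 to 67.2 ± 0.436 FPKM, while number 4 (PH02Gene42161) fell from 40.6 ± 1.98 to 7.05 ± 0.461 FPKM. A 1-like factor (PH02Gene38917) was called lower with a log2 change of -1.01 but not without 0d replicate 4 (-0.99) or 2d replicate 3, where it was just short of the limit. The most abundant of the list, ethylene-responsive transcription factor 1 (PH02Gene02658), was not called, at 617 ± 5.5 and 519 ± 10.9 FPKM.

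**Figure D5:**
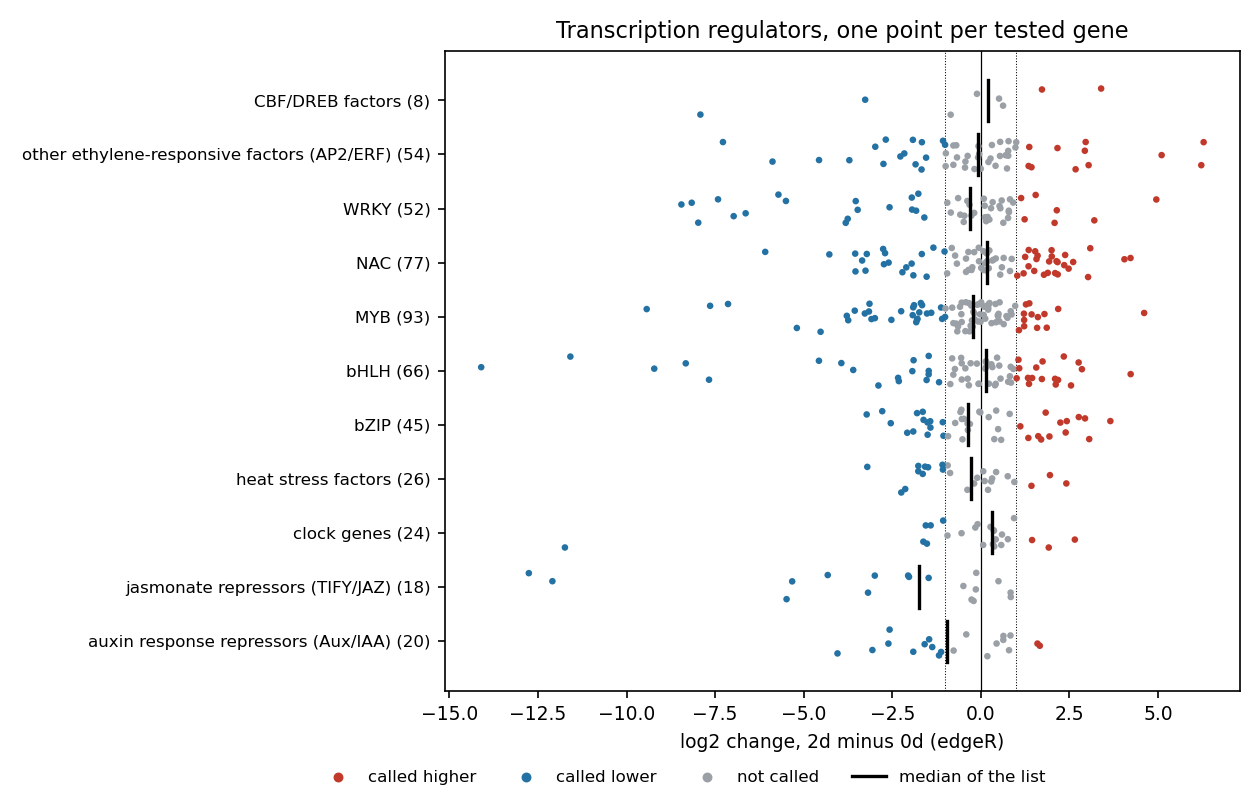
Points are the log2 changes from 0d to 2d of all tested genes in 11 lists of transcription regulators, coloured by call, and black bars are list medians. Most families hold genes on both sides of 0, and the changes below -5 include WRKY18 and an R2R3 Myb-like gene. The TIFY list has no point called higher and a median of -1.75.

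Clock genes, which keep daily time, counted 6 falls and 3 rises among 24, with a median of 0.31, on the other side of 0. GIGANTEA (PH02Gene42221) was at 159, 159, 159 and 160.3 FPKM at 0d and 47.4, 46.7, 47.6 and 44.8 at 2d (log2 change -1.52, SE 0.0231, edgeR adjusted p = 3.88e-26). The ranges did not meet. PRR73 (PH02Gene18607) fell from 80.6 ± 0.834 to 32.4 ± 1.21 FPKM, although without an FPKM filter its log2 change of -1.06 was -0.99 and not called. REVEILLE 1 (PH02Gene01456) and an ELF3-like gene (PH02Gene30219) rose from 3.1 ± 0.444 to 9.84 ± 1.02 FPKM and from 7.55 ± 0.533 to 17.3 ± 0.414 FPKM. The labels give no hour of sampling for either day, so that differences in the time of day cannot be told apart from those of storage. Photoreceptors and light signalling genes had 11 rises and 7 falls among 37 (median -0.14), and 7 and 9 under total-count scaling.

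Every tested small heat shock protein fell, 29 of 29, including members named for the mitochondrion, the chloroplast and the peroxisome (median -2.64, lowest -5.73, highest -1.13). These chaperones hold unfolding proteins and are typical of heat. Their summed level was 1185 ± 17.7 FPKM at 0d and 142 ± 1.89 at 2d. PH02Gene22094, a chloroplast member, was at 138, 136, 142 and 134 FPKM at 0d and 12.8, 13, 12.6 and 12.8 at 2d (log2 change -3.17, SE 0.0863, edgeR adjusted p = 8e-15). The class I member PH02Gene00227 fell from 120.4 ± 1.64 to 9.21 ± 0.845 FPKM, and the most abundant gene, PH02Gene22221, from 139 ± 5.56 to 34.8 ± 2.27 FPKM (log2 change -1.75). The larger chaperones, of 70, 90 and 100 kDa, fell in 17 of 46 cases and rose in 4, and heat stress factors fell in 10 of 26 and rose in 3.

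RNA helicases of the DEAD-box type unwind RNA, whose base pairing is tighter in the cold. Of 109 tested genes 18 rose and 2 fell (median 0.30), and under total-count scaling 8 rose and 2 fell. The share of rises was close to the 13.1% of all genes tested, while the share of falls was below the 18.1%. Helicase 7 (PH02Gene07201) was measured at 129, 128, 127 and 134 FPKM at 0d and 254, 249.8, 259 and 258 at 2d (log2 change 1.23, SE 0.0198, edgeR adjusted p = 1.3e-25), with no overlap. Its log2 change was 0.98 under total-count scaling. Helicase 30 (PH02Gene09417) was 109 ± 1.22 and 185 ± 3.26 FPKM, with a log2 change of 1.01, which was just short of 1 in DESeq2 and 0.76 under total-count scaling. Helicases 41 (PH02Gene10249) and 1 (PH02Gene21210) fell from 2.33 ± 0.222 to 0.784 ± 0.0981 FPKM and from 1.41 ± 0.303 to 0.473 ± 0.0674 FPKM. Ribosome biogenesis counted 4 rises and 4 falls among 89 genes, 1 and 5 under total-count scaling, and the cytosolic ribosomal proteins 3 and 4 among 277, with 1 and 22 under total-count scaling. Summed ribosomal protein transcripts stood at 17544 ± 76.1 FPKM at 0d and 16977 ± 162 at 2d.

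Genes for protein turnover differed by class. F-box proteins, which pick targets for ubiquitin ligases, rose in 37 of 185 cases and fell in 10 (median 0.32), or 26 and 18 under total-count scaling. PH02Gene43976, a kelch-repeat F-box gene, rose from 35.9 ± 0.99 to 199.9 ± 9.4 FPKM (log2 change 2.73, SE 0.0314, edgeR adjusted p = 1.63e-28) and FBX14 (PH02Gene23006) from 36.1 ± 1.17 to 125 ± 3.44 FPKM. Tubby-like F-box protein 7 (PH02Gene34209) was among the 10 largest rises, from 7.05 ± 0.496 to 76.5 ± 2.56 FPKM. Tubby-like protein 13 (PH02Gene22346) and a kelch-repeat gene (PH02Gene36680) fell from 26.2 ± 1.08 to 9.25 ± 0.941 FPKM and from 25.8 ± 0.746 to 9.37 ± 0.486 FPKM. A second FBX14 (PH02Gene08555) was not called, at 138 ± 1.21 and 221 ± 3.99 FPKM. Aspartic proteases and carboxypeptidases fell in 26 of 73 cases and rose in 3.

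Most of the called genes of secondary metabolism fell. Cytochromes P450, oxygenases of many plant products, counted 31 falls and 6 rises among 64 (median -0.96). A P450 71A1 gene (PH02Gene19833) was at 71.2, 74.8, 75.5 and 70.8 FPKM at 0d and 0.127, 0.237, 0.254 and 0.132 at 2d (log2 change -8.29, SE 0.187, edgeR adjusted p = 8.83e-16). It was close to silent in all 2d libraries. P450 72A15 (PH02Gene50425) fell from 67.3 ± 1.36 to 23.4 ± 0.399 FPKM, while a 71A1-like gene (PH02Gene10861) and a 71A1 gene (PH02Gene50381) rose from 2.28 ± 0.181 to 12.8 ± 1.27 FPKM and from 10.6 ± 0.996 to 25 ± 1.2 FPKM. P450 709B2 (PH02Gene07725) was not called (48.3 ± 0.815 and 52.9 ± 0.653 FPKM). Of 46 flavonoid genes 23 fell and 9 rose, and of 68 glutathione S-transferases 34 and 6.

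In the terpene pathway 12 of 36 genes fell and 5 rose, or 3 without 2d replicate 3 and 2 under total-count scaling. A farnesol and nerolidol synthase (PH02Gene10446), which makes volatile sesquiterpenes, fell from 78.6 ± 2.35 to 0.167 ± 0.084 FPKM (log2 change -8.57, SE 0.191, edgeR adjusted p = 2.7e-13). Squalene synthase 1 (PH02Gene43157), the entry to sterols, fell from 39.9 ± 1.33 to 3.6 ± 0.288 FPKM. The most abundant farnesol and nerolidol synthase (PH02Gene28702) was not called at 2d, with 534 ± 37 and 353 ± 4.61 FPKM, and stood at 41.9 FPKM at 6d and 8.27 at 20d. Ent-kaurene oxidase 2 (PH02Gene46349), of the gibberellin route, rose from 8.4 ± 0.205 to 18.2 ± 1.01 FPKM, and a momilactone A synthase-like gene (PH02Gene35693) from 5.27 ± 0.696 to 10.0 ± 0.895 FPKM, the latter with a log2 change of 0.92 under total-count scaling.

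Of 74 phenylpropanoid genes, which supply lignin, 20 fell and 8 rose. The abundant phenylalanine ammonia-lyases, the first enzyme of the path, rose: PH02Gene40450 measured 78.4, 72.4, 79.3 and 78.2 FPKM at 0d and 406, 405, 479 and 439.5 at 2d (log2 change 2.74, SE 0.0499, edgeR adjusted p = 1.41e-22). The groups were well apart. PH02Gene27016 rose from 354 ± 3.9 to 643 ± 14.6 FPKM (log2 change 1.11, and 0.86 under total-count scaling). Another ammonia-lyase (PH02Gene30511) fell from 29.3 ± 0.769 to 0.191 ± 0.134 FPKM and a caffeic acid O-methyltransferase (PH02Gene02562) from 51.6 ± 0.526 to 10.5 ± 0.522 FPKM. Cinnamoyl-CoA reductase 1 (PH02Gene01704), the first enzyme specific to lignin, was the third most abundant transcript at 0d and was not called, at 1493 ± 14 and 1659 ± 18.4 FPKM.

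Pathogenesis-related proteins, chitinases and thaumatins had 19 rises and 23 falls among 68 genes, while their summed level was 1815 ± 29 FPKM at 0d and 840.2 ± 17.9 at 2d. The difference lay mostly in 1 gene, PRMS (PH02Gene48686), with 1255, 1244, 1286 and 1234 FPKM at 0d and 240.0, 256, 254 and 264 at 2d (log2 change -2.06, SE 0.0269, edgeR adjusted p = 1.92e-27). Its groups did not overlap. A chitinase (PH02Gene31597) and a pathogenesis-related protein 1 (PH02Gene00015) rose from 30.3 ± 1.82 to 104 ± 4.05 FPKM and from 14.1 ± 0.518 to 76.7 ± 2.95 FPKM, and chitinase-like protein 1 (PH02Gene04647) fell from 73.9 ± 2.52 to 24.5 ± 1.63 FPKM.

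Aquaporins, channels for water, counted 7 falls and 2 rises among 16 (median -0.63). PIP2-6 (PH02Gene26386), of the plasma membrane, was at 431, 414, 423 and 406 FPKM at 0d and 145, 145, 129 and 130.0 at 2d (log2 change -1.36, SE 0.052, edgeR adjusted p = 6.41e-13). The groups were separate. A PIP1-1 gene (PH02Gene43726) fell from 152 ± 4.17 to 15.8 ± 1.74 FPKM, and a second (PH02Gene00514), the most abundant of the list, was not called (518 ± 15.2 and 278 ± 9.8 FPKM). Both rises were SIP1-1 genes: PH02Gene45743 went from 12.9 ± 1.44 to 31 ± 2.71 FPKM and PH02Gene18960 from 38 ± 1.34 to 70.6 ± 2.56 FPKM, the latter with a log2 change of 1.15 and of 0.89 under total-count scaling. Lists of the cell cycle differed from each other: cyclins and their kinases rose in 7 of 23 cases and fell in 1, and DNA replication genes in 10 and 3 of 45. Total-count scaling gave 6 and 2, and 7 and 5. Genes for kinesins and mitosis counted 19 rises and 18 falls among 101, and histones 7 and 9 among 39, with 16 and 24, and 5 and 9, under total-count scaling.

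Some of the largest single changes belong to none of the lists taken up so far. Guanosine deaminase (PH02Gene36962), which in Arabidopsis sends guanosine into purine breakdown, was at 95, 99.5, 98.9 and 98.4 FPKM at 0d and 1285, 1259.7, 1324 and 1323 at 2d (log2 change 3.98, SE 0.0214, edgeR adjusted p = 5.05e-35). Each 2d library exceeded each 0d library. Alpha carbonic anhydrase 7 (PH02Gene31120) rose from 7.24 ± 0.577 to 94.9 ± 3.17 FPKM and an SPX domain gene (PH02Gene49111), of a family that senses phosphate, from 6.93 ± 0.698 to 66.6 ± 2.9 FPKM. In the other direction PH02Gene44715, which has no description, was the most abundant transcript at 0d, with 1969.9, 2021, 2042 and 1895 FPKM, and fell to 97.6, 96.2, 87 and 86.7 at 2d (log2 change -4.18, SE 0.05, edgeR adjusted p = 6.19e-20). It dropped from rank 1 to rank 918. A pentatricopeptide repeat gene (PH02Gene39127) fell from 353 ± 18.7 to 13 ± 2.8 FPKM, a peamaclein-like gene (PH02Gene10467), of a family of small cysteine-rich peptides, from 508 ± 20.0 to 41.7 ± 4.4 FPKM, and a leucine-rich repeat gene (PH02Gene30584) from 87.4 ± 2.24 to 7.11 ± 0.286 FPKM.

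At the extremes, 28 of the genes called higher had no counts in any 0d library and 44 of those called lower had none at 2d. Among the most abundant of the first set were a UDP-glycosyltransferase 73C5-like gene (PH02Gene45070), with 5.01 ± 0.704 FPKM, at least 143.9-fold up, and transmembrane protein 184B (PH02Gene18956), with 5.34 ± 1.06 FPKM, at least 78.6-fold up. Glycosyltransferases of that type attach sugar to small molecules. Of the second set, PH02Gene23495, described as a hypothetical protein, stood at 20.7 ± 0.723 FPKM at 0d and was at least 216.9-fold lower at 2d.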

How the data were processed

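RNA of 16 pooled shoot segments had been sequenced on an Illumina NovaSeq instrument, and 8 libraries were compared here. The deposited table holds, per the file headers, FPKM and a count for 50936 genes in every library. FPKM values of 0 were written by the authors as 0.0001 and were read as 0. As deposited, the counts are estimated counts, not normalised: whole numbers among which 4 is the most frequent above 0 and 8 the next. A fragment was therefore taken to add about 4, although only 35.2% of the counts from 1 to 19 were multiples of 4. Aligner, counting tool, genome build and any use of strand were not given by the sources at hand, and protein names are those of the table.

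Genes with a mean of at least 1 FPKM over all 16 libraries were fitted in edgeR 4.0.16 (R 4.3.3), with TMM scaling, robust quasi-likelihood dispersions, 4 groups, and the contrast 2d minus 0d. SE is the standard error of a log2 change. Means are given with the SD over n = 4 libraries, and p-values measure the spread between these pools. A group without counts was given a floor of 3 fragments, 12 counts, which covers counting error only. In data simulated from the 24944 genes for this comparison, 58 of 100 genes changed by 1 and 100 of 100 changed by 2 (log2) were called, with 1 of 24744 unchanged genes. Few genes were changed there, evenly up and down, so the simulation cannot show calls that depend on scaling when many genes change.

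Genes were named by rule: the 10 most abundant at 0d and at 2d, the 10 largest rises and falls among called genes with at least 5 FPKM in the lower group, an informative description and no overlap, and the 5 most abundant of those without counts in one group. In each list described by gene, the rule takes up to 2 called members with the largest rise and up to 2 with the largest fall in FPKM, the most abundant member, and every member of lists of up to 8. Not all of the most abundant genes and of those without counts are printed. Lists were patterns on descriptions. The comparison, lists and rule were chosen with earlier results of these data known. The 20 alternatives are given in the closing section; they include DESeq2 1.42.0 and limma 3.58.1 on log2(FPKM + 1) and log2(FPKM + 0.1).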

Additional observations from a re-analysis of the deposited data

Results flagged for a closer look

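In 31 of 476 groups of 4 libraries, the gap between 1 library and its nearest neighbour exceeded, as a share of the whole range, Dixon's limit at 95%. The share is near the 1 in 20 that chance gives. Most of these groups have a narrow range. Among the values set apart were PH02Gene06142 (protein phosphatase 2C 39), at 139.9 FPKM in 2d replicate 2 against 354 to 369.6, and the leaf-specific thionin PH02Gene50531, at 0 in 0d replicate 1 against 13 to 15.3. PH02Gene06059, the trypsin inhibitor, was at 7.63 FPKM in 0d replicate 2 against 32.2 to 37.2 and at 9.12 in 2d replicate 1 against 1.05 to 1.66. A gap of this kind set apart PH02Gene01977 at 0.0551 FPKM in 2d replicate 4 (others 0), PH02Gene02526 at 38 FPKM in 0d replicate 2 (others 34.7 to 35.3), PH02Gene02526 at 8.41 FPKM in 2d replicate 3 (others 10.1 to 10.4) and PH02Gene03055 at 275 FPKM in 0d replicate 3 (others 266 to 267). The same held for PH02Gene04428 at 241 FPKM in 0d replicate 4 (others 233 to 234), PH02Gene04473 at 378 FPKM in 0d replicate 4 (others 400.1 to 403), PH02Gene12145 at 0.0539 FPKM in 2d replicate 1 (others 0) and PH02Gene20989 at 0.475 FPKM in 2d replicate 1 (others 0.246 to 0.284). Set apart in this way were also PH02Gene24250 at 0.409 FPKM in 2d replicate 3 (others 0), PH02Gene30511 at 0.391 FPKM in 2d replicate 1 (others 0.115 to 0.135), PH02Gene31942 at 134 FPKM in 0d replicate 2 (others 129.9 to 131) and PH02Gene38917 at 141 FPKM in 2d replicate 1 (others 131 to 132). Further such values were PH02Gene40450 at 72.4 FPKM in 0d replicate 2 (others 78.2 to 79.3), PH02Gene40896 at 2.96 FPKM in 2d replicate 4 (others 1.77 to 1.85), PH02Gene41094 at 119 FPKM in 2d replicate 3 (others 123 to 124) and PH02Gene45844 at 78.4 FPKM in 2d replicate 1 (others 72.1 to 72.8). Summed over lists, single libraries differed for protein phosphatases 2C at 2095 in 2d replicate 2 (others 2293 to 2323), gibberellin receptor, DELLA and response genes at 73.9 in 0d replicate 4 (others 79.4 to 79.7), WRKY at 1124 in 0d replicate 4 (others 1157 to 1164), heat stress factors at 279 in 0d replicate 2 (others 287 to 288), invertases at 205 in 2d replicate 4 (others 203) and starch synthesis at 624 in 0d replicate 4 (others 609.6 to 612) FPKM. Sums also differed for starch breakdown at 485 in 0d replicate 2 (others 491 to 492), mitochondrial electron transport at 1461 in 0d replicate 4 (others 1487 to 1489), lipid transfer proteins at 120.4 in 2d replicate 3 (others 126 to 127), pentatricopeptide repeat proteins at 1242 in 0d replicate 4 (others 1189 to 1191) and epidermis at 46.3 in 0d replicate 2 (others 44.1 to 44.3) FPKM. The sum of the protein phosphatases 2C includes PH02Gene06142, set apart in the same library, so those flags are not separate. No explanation was tested.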

How the results depend on the processing

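Of 7762 called genes, 3258 higher and 4504 lower, 20 alternatives gave the following. Filtering at a mean of 5 FPKM left 3922 called genes of 16195 tested (1801 higher, 2121 lower), and no FPKM filter gave 11961 of 40101 (7231 lower). With limma on log2(FPKM + 1) 1648 genes were higher. A filter at a mean of 1 FPKM over 0d and 2d gave 8072 called genes of 25206 tested (4857 lower). Fitting only the 0d and 2d libraries gave 7743 called genes. Leaving out 1 library gave 7740 to 7770 called genes, 3247 to 3274 higher and 4483 to 4507 lower. Total-count scaling gave 5797 lower and 2311 higher genes, upper-quartile scaling 4925 and 2842, and limma on log2(FPKM + 0.1) 5716 and 2250. DESeq2 called 7761 genes and median-of-ratios scaling 7756. With the replicate number as a block, 7758 genes were called. The numbers are not shown to pair the libraries: same-numbered deviations correlated at 0.065, -0.112, 0.094 and 0.084 over 11339 genes, and not every library correlated best with its own number. Of 196 named genes 166 were called; 23 of these lost the call in some alternative, most often under total-count scaling or limma, none reversed, and 8 gained or lost it on leaving out 1 library. The block changed 1 call, that of PH02Gene41851 (adjusted p = 0.0758). The cause was not tested, apart from the fewer or more genes tested under the FPKM filters. Depth limits genes near 1 FPKM most, and a fragment worth about 4 counts would make the counting error larger than the counts imply. Dividing counts by 4 gave 7764 called genes.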

Other observations

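Starch genes, those for cytokinin turnover and those of organelle RNA processing belong to none of the comparisons above. Of 27 starch synthesis genes 7 fell and 1 rose, with a median log2 change of 0.10 on the other side of 0. The rises numbered 2 without any one of 0d replicates 1, 2 and 4 and 2d replicate 1. Under total-count scaling 8 fell and 0 rose, and the median was -0.15, so its sign depends on the scaling. Of 27 starch breakdown genes 3 rose and 4 fell, or 2 fell without 0d replicate 3. Total-count scaling gave 3 rises and 6 falls, and moved the median from 0.02 to -0.23. Summed starch synthesis stood at 614 ± 6.47 FPKM at 0d and 439.9 ± 5.87 at 2d, while starch breakdown changed its sum from 490.1 ± 3.11 to 440.2 ± 3.32 FPKM. Genes that make or break down cytokinin, a hormone of cell division, counted 4 rises and 4 falls among 13, and 4 and 6 under total-count scaling. Pentatricopeptide repeat proteins, which bind RNA in chloroplasts and mitochondria, counted 34 rises and 16 falls among 191, 28 and 25 under total-count scaling, and 8 and 12 with limma on log2(FPKM + 1). Their sum was 1203 ± 26.1 FPKM at 0d and 764 ± 11.2 at 2d, so that a median of 0.19 stood beside a lower sum. Most of the lower sum came from the fall of PH02Gene39127, given above, and under total-count scaling the median was -0.06.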
